A study of Mus musculus with 24 samples.

Results

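The adult intestinal stem cell has long been recognised by a small set of transcripts, and 10 of them were followed here through induction of BRAFV600E and mutant p53 in mouse organoids. The set was defined by name, with no measured value in its rule, and comprised Lgr5, Ascl2, Olfm4, Smoc2, Tnfrsf19, Sox9, Prom1, Lrig1, Bmi1 and Hopx, 10 of the 45706 genes counted. Each of the 10 passed the low-count filter in both tissues, although Tnfrsf19 did so in small intestine with 46 reads at most in any library.

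Small intestinal (SI) and colonic (COL) organoids, epithelial cultures grown in a gel from isolated crypts, came from C57BL/6N mice of 3 genotypes: Braf floxV600E/+, Trp53 LSL-R172H/+, and both alleles together, named BRAF, p53 and BRAFp53 below. All groups, controls included, carried Villin::CreERT2, a recombinase that is expressed from the Villin promoter in intestinal epithelium and is activated by 4-hydroxytamoxifen (4-HT). In "on" organoids the mutant allele had been switched on with 4-HT for 24 h, at 0.5 µM in SI and 3.5 µM in COL, whereas "off" organoids received the solvent ethanol. RNA was collected on day 8 for SI and on day 3 for COL, and each of the 12 groups had 2 libraries. Every genotype and tissue was represented by 1 donor culture, so that genotype and culture cannot be told apart. For on against off, p-values measure the spread between parallel libraries of a culture, shared over the libraries fitted together. Those of the off comparison between tissues measure the spread between cultures. COL medium held Wnt3a and the GSK3 inhibitor CHIR99021 in addition to the EGF, Noggin and R-Spondin 1 given to both tissues. Tissue, dose, day and medium therefore cannot be told apart either. Donors differed as well: the Y-linked gene Kdm5d lay at 15.5 to 23.0 CPM in COL and at 11.5 to 17.0 CPM in SI BRAF, but at 0.0363 CPM at most in SI p53 and SI BRAFp53, which carried Xist RNA at 104.0 to 150.0 CPM, so that donor sex cannot be told apart from tissue for those 2 genotypes.

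Stem cells at the crypt base are maintained by Wnt ligands, whose signal is amplified when R-spondins bind LGR receptors and thereby protect Frizzled receptors from removal. Ascl2 is a transcription factor that acts with Wnt signalling to set the stem cell programme, and Lgr5, Ascl2, Smoc2, Tnfrsf19 and Olfm4 mark the cycling crypt-base columnar cells. Olfm4, a secreted glycoprotein, responds to Notch and is a stem cell marker of the small intestine rather than of the mouse colon. Lrig1, Bmi1 and Hopx have been used as marks of a slowly cycling or reserve population, although their transcripts are also found in crypt-base columnar cells. Sox9 and Prom1 extend beyond the stem cell into progenitors and, for Sox9, Paneth, tuft and enteroendocrine cells.

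Library totals lay between 44350747 and 78175143 counted reads, and a count of 3 reads was taken as the floor. Levels are given as CPM, the count scaled to 1e6 reads, with library sizes adjusted within a tissue by trimmed mean of M-values (TMM). Braf was higher in both on than in both off libraries in 4 of the 4 cultures with the conditional Braf allele, and the same held for Trp53 in 4 of the 4 cultures with the conditional Trp53 allele. The colonocyte carbonic anhydrase Car1 lay at 1473 to 20037 CPM in COL and at 0.24 CPM at most in SI. The off libraries of the COL BRAF culture held the enterocyte gene Fabp1 at 94.6 and 100.0 CPM, against 0.645 CPM at most in the off libraries of the other COL cultures. One library stood apart within its group. SI BRAF on replicate 1 held 770 reads of Xist, the RNA of the inactive X chromosome, against 8 to 27 reads in the other SI BRAF libraries and 6123 to 9743 reads in the libraries of the other SI cultures. Whether that library holds RNA of another culture was not tested, and it would bear on every value of SI BRAF on. The marker and list counts of SI BRAF are given with and without that library. Of 9 stromal and immune genes, the summed level was at most 2.58 CPM in any COL library and 1.3 CPM in any SI library, with Dcn, Cd3e and Adgre1 each at or below 0.0638 CPM in all libraries.

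In the mm10 build (GRCm38, GENCODE M21) the crypt-base columnar markers were Lgr5 at chr10:115450311-115587780 on the minus strand, Ascl2 at chr7:142966829-142969264 on the minus strand, Olfm4 at chr14:79984081-80023139 on the plus strand, Smoc2 at chr17:14279506-14404790 on the plus strand and Tnfrsf19 at chr14:60963875-61046490 on the minus strand. The others were Sox9 at chr11:112782224-112787760 on the plus strand, Prom1 at chr5:43993620-44102032 on the minus strand, Lrig1 at chr6:94604529-94700158 on the minus strand, Bmi1 at chr2:18677018-18686629 on the plus strand and Hopx at chr5:77086988-77115121 on the minus strand. All 10 are protein-coding. Exons of Hopx shared 412 bases with the antisense gene Hopxos, those of Prom1 424 bases with the antisense gene Gm16401, and those of Lrig1 144 bases with Slc25a26 on the opposite strand. Olfm4 shared 153 bases with the lincRNA Gm6999 on its own strand. Whether counting used strand is not given in the sources used here, so reads in those stretches are uncertain.

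RefSeq promoter sequence (GRCm38.p6) was found for 7 of the 10 genes, namely Ascl2, Olfm4, Tnfrsf19, Prom1, Lrig1, Bmi1 and Hopx, and the 250 bases before each annotated start were searched on both strands. The letters searched were CTTTGAT or CTTTGAA for the TCF/LEF factors of the Wnt pathway, TGGGAA for the Notch effector RBPJ, and CAGCTG for an E-box of the kind bound by factors such as Ascl2. They occurred in 7.48%, 21.6% and 13.0% of 32851 promoter windows of that length. The windows below are those of 3 crypt-base columnar markers that were lower with BRAFV600E in at least 1 tissue, shown 5′ to 3′ in the direction of transcription, with capitals marking the motif matches. They lie at chr14:80000052-80000301 (plus strand) for Olfm4, chr7:142969265-142969514 (minus strand) for Ascl2, and chr14:61037988-61038237 (minus strand) for the downstream start of Tnfrsf19. The Olfm4 and the Tnfrsf19 windows both fall inside the GENCODE gene spans given above, since RefSeq places these starts downstream of the outermost GENCODE start.
Olfm4: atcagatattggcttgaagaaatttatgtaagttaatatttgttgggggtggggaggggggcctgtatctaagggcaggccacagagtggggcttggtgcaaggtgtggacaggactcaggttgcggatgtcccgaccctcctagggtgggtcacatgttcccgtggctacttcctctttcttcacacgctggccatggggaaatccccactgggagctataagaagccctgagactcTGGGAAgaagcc
Ascl2: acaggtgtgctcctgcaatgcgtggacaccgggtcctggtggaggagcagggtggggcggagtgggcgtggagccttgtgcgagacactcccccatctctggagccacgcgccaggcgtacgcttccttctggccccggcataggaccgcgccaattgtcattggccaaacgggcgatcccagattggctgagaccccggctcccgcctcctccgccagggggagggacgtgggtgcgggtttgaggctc
Tnfrsf19, downstream start: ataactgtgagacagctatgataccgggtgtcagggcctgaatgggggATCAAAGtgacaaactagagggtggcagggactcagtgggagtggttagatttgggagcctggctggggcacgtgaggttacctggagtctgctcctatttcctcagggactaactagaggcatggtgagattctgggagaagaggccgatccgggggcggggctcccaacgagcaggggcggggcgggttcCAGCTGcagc
Counting back from the start site, the RBPJ letters began at position -12 in Olfm4, and the TCF/LEF and E-box letters began at positions -202 and -10 in Tnfrsf19. The Ascl2 window held no match to any of the 3 motifs. Among the remaining windows, the RBPJ letters occurred at -116 in Prom1 and at -246 in Bmi1. A match describes the letters only.

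Before induction, the stem cell transcripts were present in both tissues but in a different order. Levels are given per transcript length, as RPKM (CPM divided by the exonic length in kilobases) with TMM scaling across all 24 libraries, as the mean of 3 off cultures per tissue. In COL, Prom1 was highest at 68.9 ± 37.7 RPKM (SD, n = 3 cultures), followed by Sox9 at 26.2 ± 12.5, Ascl2 at 24.6 ± 10.4 and Lgr5 at 17.1 ± 6.05 RPKM. Lrig1 at 11.5 ± 2.52, Smoc2 at 10.5 ± 6.2, Olfm4 at 6.02 ± 4.79, Bmi1 at 4.26 ± 2.23, Tnfrsf19 at 2.61 ± 1.01 and Hopx at 1.69 ± 0.71 RPKM came below them. Cultures of COL differed so much that the range of each gene overlapped that of its neighbour in this order. In SI, Olfm4 was highest at 66.7 ± 9.6 RPKM, and its lowest culture (56.0) lay above the highest culture of Prom1 (19.0). Prom1 at 16.2 ± 3.48 and Smoc2 at 15.1 ± 1.48 RPKM overlapped, as did Ascl2 at 9.94 ± 1.32, Lrig1 at 9.29 ± 0.865 and Sox9 at 9.21 ± 2.0 RPKM. Hopx at 3.0 ± 0.124, Bmi1 at 2.92 ± 0.515 and Lgr5 at 1.91 ± 0.938 RPKM followed. Cultures of Bmi1 overlapped those of Hopx and Lgr5, while the highest Lgr5 culture (2.86) lay just below the lowest Hopx culture (2.87). Tnfrsf19 was last at 0.0792 ± 0.0756 RPKM, with 2 to 46 reads per off library.

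**Figure D1:**
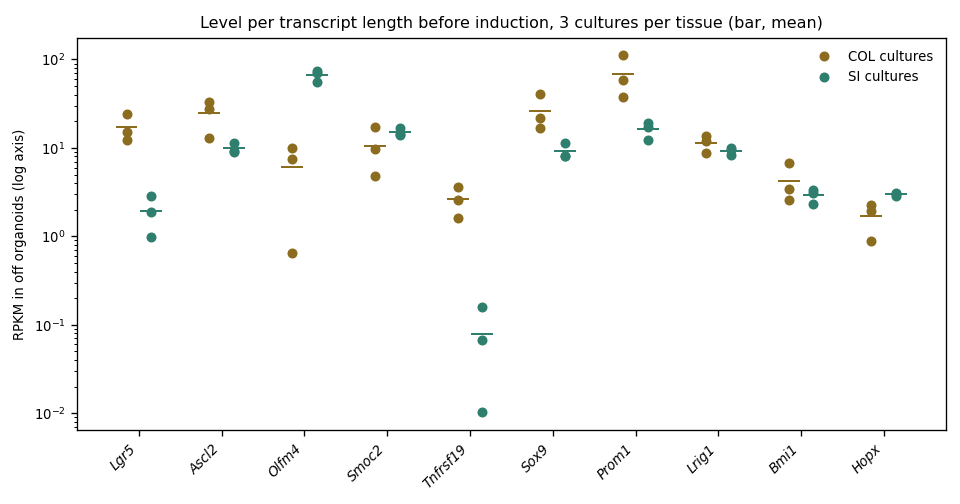
RPKM of the 10 stem cell markers in off organoids (log axis), with 1 dot for each of 3 cultures per tissue and a bar at the mean. All COL cultures lie above all SI cultures for Lgr5, Ascl2, Tnfrsf19, Sox9 and Prom1, and below them for Olfm4 and Hopx.

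Compared directly, 5 of the 10 markers were higher and 1 was lower in COL than in SI off organoids by edgeR's quasi-likelihood test (threshold, adjusted p of 0.05), where 29.6% of 17789 genes differed in either direction. Lgr5, the R-spondin receptor, was higher by 3.18 ± 0.43 on the log2 scale (SE; adjusted p = 0.00354). Tnfrsf19, a TNF receptor family member, was also called higher (adjusted p = 0.00731), with 455 to 1418 reads per COL off library against 2 to 46 reads per SI off library, and no fold is given because some SI libraries were at or near the floor. Prom1 was higher by 2.13 ± 0.40 (adjusted p = 0.00955), Sox9 by 1.53 ± 0.34 (adjusted p = 0.0161) and Ascl2 by 1.34 ± 0.33 (adjusted p = 0.0225). Olfm4 was lower, with a log2 difference of -3.44 ± 0.85 (adjusted p = 0.0228), and varied among COL cultures from 0.654 RPKM in p53 to 9.88 RPKM in BRAF. Smoc2 (-0.50 ± 0.40), Lrig1 (0.34 ± 0.18), Bmi1 (0.58 ± 0.36) and Hopx (-0.82 ± 0.36) did not pass the test. Of 20 Wnt receptors and targets, 11 were higher and 2 lower in COL. The calls for Lgr5, Tnfrsf19 and Prom1 held whichever culture was left out, whereas without the SI BRAFp53 or without the SI p53 culture only those 3 were called, and Ascl2 passed in 1 of 6 such fits, the one without the COL p53 culture.

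With BRAFV600E alone, 5 of the 10 markers fell in COL by edgeR's test and none rose, where 9.61% of 18972 genes were lower and 10.3% higher. The markers had a median log2 change of -0.89, against -0.01 over all genes tested. Olfm4 was measured at 40.0 and 25.2 CPM in the off libraries and at 1.09 and 1.06 CPM in the on libraries, a log2 change of -4.92 ± 0.81 (adjusted p = 0.00138). Lgr5 went from 179.0 and 167.0 CPM to 46.9 and 59.4 CPM (-1.71 ± 0.21, adjusted p = 0.000226). The off and on libraries of both genes were far apart relative to their replicate spread. Smoc2, a secreted matrix protein, was at 77.6 and 72.7 CPM off and at 21.1 and 30.4 CPM on (-1.55 ± 0.25, adjusted p = 0.00138). Tnfrsf19 was at 7.07 and 10.1 CPM off and at 3.51 and 3.6 CPM on (-1.27 ± 0.27, adjusted p = 0.00576), a call that ended without off replicate 2 (-1.0, adjusted p = 0.0534).

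The other COL BRAF responses were smaller. Lrig1, a negative regulator of ErbB receptors, was at 75.1 and 75.8 CPM off and at 48.0 and 51.4 CPM on (-0.60 ± 0.13, adjusted p = 0.0075), and without on replicate 1 it no longer passed (-0.57, adjusted p = 0.0685). Ascl2 spread widely, with 72.8 and 27.7 CPM off against 13.7 and 31.0 CPM on, so that the groups overlapped and the log2 change of -1.18 ± 0.46 did not pass (adjusted p = 0.0985). Without off replicate 2 it passed (-1.71, adjusted p = 0.025), as it did without on replicate 2 (-1.9, adjusted p = 0.0423). The change shrank to -0.32 (adjusted p = 0.731) without off replicate 1 and to -0.72 (adjusted p = 0.451) without on replicate 1. Sox9, a transcription factor of the crypt, was at 74.4 and 79.6 CPM off and 62.6 and 71.2 CPM on (-0.20 ± 0.16, adjusted p = 0.433). Prom1, a pentaspan membrane protein, was at 312.0 and 291.0 CPM off and 392.0 and 355.0 CPM on (0.31 ± 0.14, adjusted p = 0.154), and was called higher in the 4 libraries alone (0.32, adjusted p = 0.0315). Bmi1, a Polycomb repressor subunit, and Hopx, a homeodomain protein without DNA binding of its own, had values of 0.09 ± 0.18 and -0.12 ± 0.34 with overlapping groups.

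In COL BRAFp53, 7 of the 10 markers fell and none rose by edgeR's test, where 7.76% of genes were lower and 9.95% higher, with a median log2 change of -0.82 against -0.04 over all genes. Olfm4 went from 31.7 and 17.1 CPM to 0.0408 and 0.641 CPM, the on values resting on 3 reads, the floor, and 38 reads (-6.24 ± 0.89, adjusted p = 0.000774). The size of that change is uncertain, with log2 values of -9.15 to -5.23 when 1 library was left out. Smoc2 went from 146.0 and 115.0 CPM to 23.1 and 34.0 CPM (-2.19 ± 0.26, adjusted p = 0.000226). Lgr5 went from 298.0 and 242.0 CPM to 65.1 and 86.6 CPM (-1.83 ± 0.21, adjusted p = 0.000185). For these crypt-base columnar markers the call held without any single library of the culture.

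The remaining COL BRAFp53 calls depended on single libraries. Tnfrsf19 was at 22.0 and 16.0 CPM off and 8.76 and 12.1 CPM on (-0.87 ± 0.25, adjusted p = 0.0353), Sox9 at 183.0 and 185.0 CPM off and 98.7 and 116.0 CPM on (-0.78 ± 0.16, adjusted p = 0.00607). Bmi1 was at 32.2 and 27.1 CPM off and 18.2 and 18.5 CPM on (-0.69 ± 0.18, adjusted p = 0.0213), and Lrig1 at 79.3 and 88.5 CPM off and 50.0 and 64.2 CPM on (-0.56 ± 0.13, adjusted p = 0.0135). Without on replicate 1 only Lgr5, Olfm4 and Smoc2 of the 10 were called. In the 4 libraries alone Tnfrsf19 (adjusted p = 0.055) and Lrig1 (adjusted p = 0.0578) did not pass. Tnfrsf19 was also lost without off replicate 1, Lrig1 without off replicate 2, and Bmi1 without off replicate 1 or on replicate 2. Prom1 did not pass, with 464.0 and 456.0 CPM off and 681.0 and 542.0 CPM on (0.41 ± 0.14, adjusted p = 0.064) by edgeR, but it was called higher by DESeq2 (0.42, adjusted p = 0.0216), without the low-count filter (0.42, adjusted p = 0.00521) and without on replicate 2 (0.57, adjusted p = 0.0293). Ascl2 did not pass at 65.2 and 52.7 CPM off and 20.3 and 31.3 CPM on (-1.20 ± 0.46, adjusted p = 0.0975), although it did in the 4 libraries of the culture alone (adjusted p = 0.0151), and Hopx stood at -0.26 ± 0.34.

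**Figure D2:**
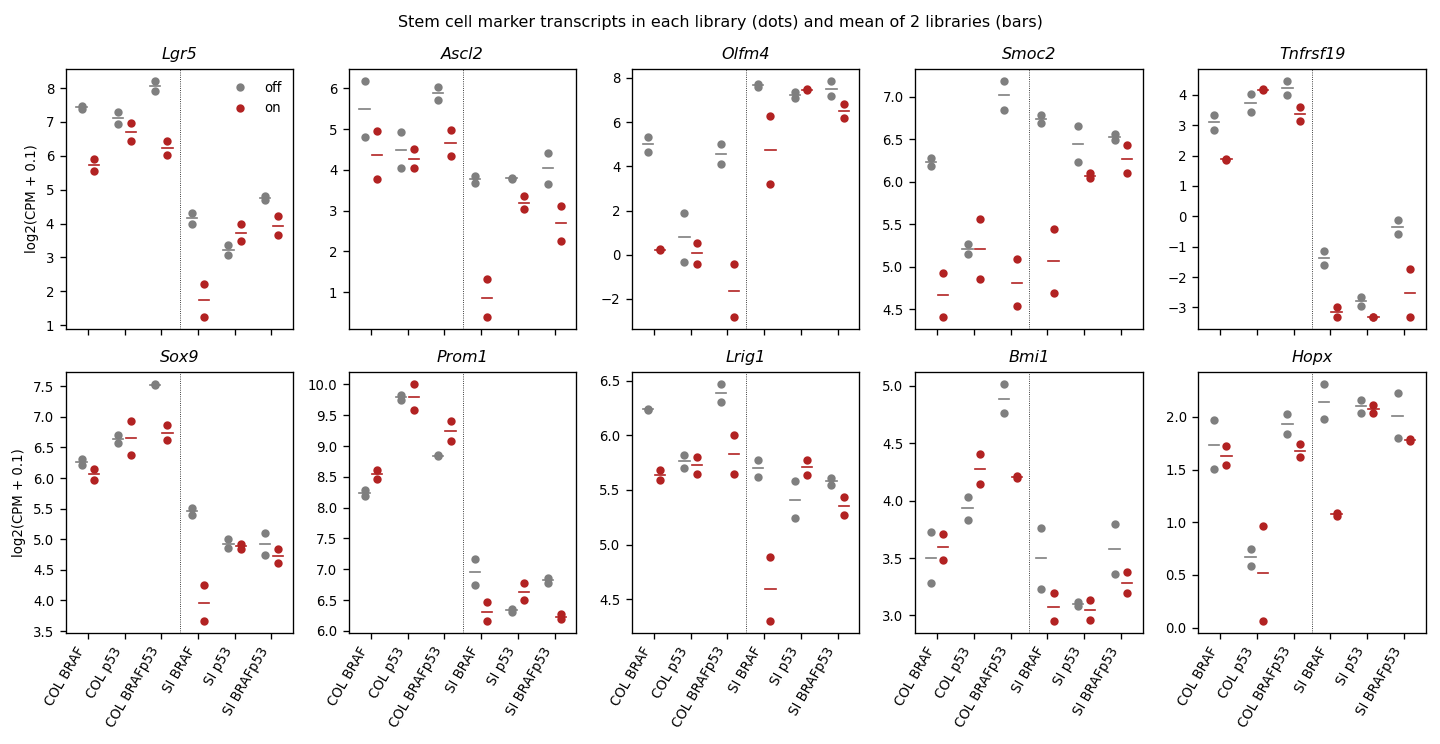
Level of each marker, as log2(CPM + 0.1), in off (grey) and on (red) libraries of the 6 cultures, with a dot for each library and a bar at the mean of 2 (the dotted line parts COL from SI, and axes differ between genes). Lgr5 and Smoc2 on libraries lie below the off libraries in COL BRAF, COL BRAFp53, SI BRAF and SI BRAFp53. Neither was called by edgeR in SI BRAFp53, and none of the markers was called in the p53 cultures.

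SI BRAF organoids showed the broadest decrease: 8 of the 10 markers fell and none rose, where 14.2% of 16856 genes were lower and 17.5% higher. The median log2 change was -1.55 over the 10 markers and -1.47 without Tnfrsf19, against -0.06 over all genes. Ascl2 was at 12.7 and 14.4 CPM off and at 2.4 and 1.21 CPM on (-2.88 ± 0.36, adjusted p = 4.91e-05). Lgr5 was at 15.9 and 19.9 CPM off and at 4.57 and 2.25 CPM on (-2.38 ± 0.30, adjusted p = 6.03e-05). Olfm4 was at 194.0 and 212.0 CPM off, but its on libraries differed from each other, with 78.6 CPM in replicate 1 and 9.08 CPM in replicate 2 (-2.20 ± 0.61, adjusted p = 0.0145). Its call was lost without off replicate 2 (-2.14, adjusted p = 0.0518).

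Smoc2 went from 103.0 and 110.0 CPM to 43.5 and 25.7 CPM in SI BRAF (-1.62 ± 0.21, adjusted p = 7.07e-05), and Sox9 from 42.1 and 45.5 CPM to 19.0 and 12.6 CPM (-1.47 ± 0.18, adjusted p = 5.78e-05). Among the reserve-type markers, Hopx went from 3.84 and 4.86 CPM to 2.02 and 1.99 CPM (-1.12 ± 0.24, adjusted p = 0.00307), and Lrig1 from 54.8 and 49.1 CPM to 29.5 and 19.6 CPM (-1.08 ± 0.18, adjusted p = 0.000441). Prom1 went from 143.0 and 107.0 CPM to 88.1 and 71.6 CPM (-0.65 ± 0.15, adjusted p = 0.00501), but did not pass without off replicate 1 (adjusted p = 0.0747) or without on replicate 2 (adjusted p = 0.0539). These 5 genes were among the 8 that edgeR called. Bmi1 did not pass, at 13.5 and 9.3 CPM off and 9.05 and 7.64 CPM on (-0.44 ± 0.21, adjusted p = 0.128), but did without off replicate 2 (-0.69, adjusted p = 0.0474). Tnfrsf19 was counted at 11 and 22 reads off and at 0 and 1 read on, at or under the floor, and no fold is given.

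Without SI BRAF on replicate 1, the library with Xist reads, the same 8 markers were called in SI BRAF, and 7 of the 8 log2 changes were larger in size. Olfm4 moved most, to -4.46 (adjusted p = 7.63e-07), and with on replicate 2 left out instead it stood at -1.37 (adjusted p = 0.00322). Ascl2 stood at -3.46, Lgr5 at -2.97, Smoc2 at -2.04, Sox9 at -1.78, Lrig1 at -1.38, Hopx at -1.11 and Prom1 at -0.79.

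In SI BRAFp53, 2 of the 10 markers fell and none rose by edgeR's test, where 4.53% of genes were lower and 6.98% higher. The median log2 change was -0.45 (-0.32 without Tnfrsf19, which was near the floor) against -0.03 over all genes. Ascl2 was at 12.5 and 21.4 CPM off and at 4.72 and 8.6 CPM on (-1.35 ± 0.32, adjusted p = 0.0151). Prom1 was at 116.0 and 110.0 CPM off and at 77.2 and 73.2 CPM on (-0.58 ± 0.15, adjusted p = 0.0233). The Prom1 call ended without any 1 of the 4 libraries (adjusted p of 0.0783 to 0.166), and that of Ascl2 without off replicate 2 (-0.9, adjusted p = 0.175) or on replicate 1 (-0.98, adjusted p = 0.12).

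Lgr5 was at 25.6 and 27.9 CPM off and at 18.4 and 12.5 CPM on in SI BRAFp53, without overlap, but its change did not pass by edgeR (-0.79 ± 0.27, adjusted p = 0.0836). It passed by DESeq2 (-0.78, adjusted p = 0.0282), by limma-voom (-0.83, adjusted p = 0.0171), in the 4 libraries alone (adjusted p = 0.0215) and without the low-count filter (adjusted p = 0.000758). Olfm4 was at 143.0 and 235.0 CPM off and 114.0 and 72.4 CPM on (-1.02 ± 0.59, adjusted p = 0.325), and passed in the 4 libraries alone (adjusted p = 0.0261). Smoc2 was at 89.9 and 94.4 CPM off and 68.8 and 86.4 CPM on (-0.25 ± 0.20), and Sox9 at 26.7 and 34.2 CPM off and 28.4 and 24.4 CPM on (-0.20 ± 0.18). Lrig1 (-0.22 ± 0.17), Bmi1 (-0.32 ± 0.21) and Hopx (-0.26 ± 0.23) lay within 2 SE of 0. Tnfrsf19 was counted at 32 and 46 reads off and at 11 and 0 reads on. It did not pass by edgeR (adjusted p = 0.191) but was called lower by limma-voom (adjusted p = 0.0261), and no fold is given.

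**Figure D3:**
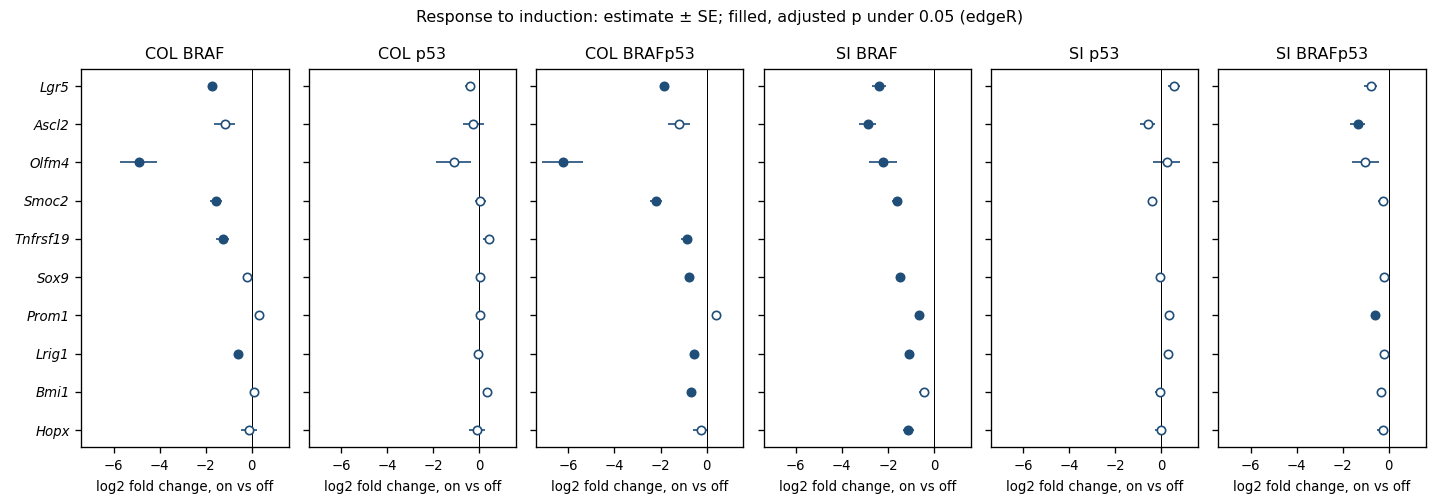
Log2 fold change of each marker, on against off, in the 6 cultures, as estimate ± SE from edgeR, with filled dots for adjusted p under 0.05. Filled dots number 5, 0 and 7 in COL BRAF, p53 and BRAFp53, and 8, 0 and 2 in SI, all on the side of a decrease. Tnfrsf19 is not drawn in SI, where its on libraries held 0 to 11 reads.

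Mutant p53 alone changed none of the 10 markers by edgeR's test in either tissue, where 0.142% of genes were called in COL and 0.0% in SI. DESeq2 and limma-voom also called 0 of the 10, and 0 of the 10 had an unadjusted p under 0.05 by edgeR in either tissue. Over all 16856 SI genes, edgeR called 0, 873 had an unadjusted p under 0.05, DESeq2 called 65 and limma-voom 1. In COL p53, Lgr5 was at 158.0 and 123.0 CPM off and 87.3 and 125.0 CPM on (-0.40 ± 0.20, adjusted p = 0.639), with overlapping groups. Olfm4 was low in that culture, at 3.61 and 0.7 CPM off and 0.649 and 1.34 CPM on (-1.11 ± 0.75). Without the low-count filter edgeR called it lower (-1.11, adjusted p = 0.00285), where 569 of 30407 genes were called. In SI p53, Lgr5 was at 8.29 and 10.1 CPM off and 15.8 and 11.0 CPM on (0.55 ± 0.28, adjusted p = 0.981), and Ascl2 at 13.9 and 13.6 CPM off and 8.09 and 10.1 CPM on (-0.60 ± 0.31, adjusted p = 0.984). In SI p53 neither these differences nor those of Olfm4, Smoc2, Prom1 and Lrig1 passed the test against the spread shared by the 12 SI libraries. In COL p53, Tnfrsf19 (0.41 ± 0.25) and Bmi1 (0.35 ± 0.18) did not pass either. In SI p53, Tnfrsf19 was counted at 4 and 2 reads off and at 0 reads in both on libraries, and no fold is given. Medians over the markers were -0.01 in COL and -0.04 in SI, or -0.03 in SI without Tnfrsf19.

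Whether mutant p53 altered the response to BRAFV600E was asked by testing the difference between the BRAFp53 and BRAF responses. In SI, 4 of the 10 markers had a response that was higher, that is a smaller decrease, in BRAFp53 than in BRAF, where 1.93% of genes had a higher response. The differences were 1.58 ± 0.40 on the log2 scale for Lgr5 (adjusted p = 0.0285), 1.38 ± 0.29 for Smoc2 (adjusted p = 0.0111), 1.27 ± 0.26 for Sox9 (adjusted p = 0.00904) and 0.85 ± 0.25 for Lrig1 (adjusted p = 0.0495). Ascl2 (1.54 ± 0.47, adjusted p = 0.0634 by edgeR and 0.00763 by DESeq2), Olfm4 (1.18 ± 0.83, adjusted p = 0.438) and Hopx (0.86 ± 0.33, adjusted p = 0.14) did not pass, nor did Prom1 (0.07 ± 0.21) and Bmi1 (0.13 ± 0.29).

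That difference in SI depended on single libraries. The number called over all genes changed with the library left out as well. Without SI BRAFp53 off replicate 1 none of the 10 markers was called, with Smoc2 at 1.35 (adjusted p = 0.0508), Sox9 at 1.1 (adjusted p = 0.0524), Lgr5 at 1.53 (adjusted p = 0.107) and Lrig1 at 0.89 (adjusted p = 0.128). The Lrig1 call was lost with RLE size factors (0.83, adjusted p = 0.0542) and without any 1 of 7 of the 8 libraries of both cultures, and the Lgr5 call without any 1 of 5. Without SI BRAF off replicate 2, and likewise without SI BRAF on replicate 2, 2 markers were called, Sox9 and Smoc2. Without SI BRAF on replicate 1, Olfm4 stood at 3.46 and Ascl2 at 2.13. In COL none of the 10 markers differed between the BRAFp53 and BRAF responses by edgeR, where 0.907% of genes did; 2 had an unadjusted p under 0.05, and DESeq2 and limma-voom called 0. The nearest were Bmi1 at -0.78 ± 0.26 (adjusted p = 0.136), Sox9 at -0.58 ± 0.23 (adjusted p = 0.197) and Smoc2 at -0.65 ± 0.35 (adjusted p = 0.345), and Olfm4 stood at -1.32 ± 1.13. The Olfm4 value, which involves an on library with 3 reads, ran from -4.23 to -0.3 when 1 library was left out and passed when no low-count filter was used (-1.29, adjusted p = 0.035). SI BRAF and SI BRAFp53 were different cultures with Xist at 0.206 to 15.4 CPM in the former and 111.0 to 150.0 CPM in the latter, and the part of donor in the difference cannot be told apart from genotype.

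The responses of COL and SI were then compared in a fit of all 24 libraries. Tnfrsf19 is left out here, since its SI on libraries were near the floor. For BRAF, 2 of the 10 markers differed, where 10.7% of 19673 genes did. Sox9 had a higher response in COL by 1.23 ± 0.26 (adjusted p = 0.00396) and Prom1 by 0.92 ± 0.22 (adjusted p = 0.01), while Lgr5 (0.63 ± 0.39), Smoc2 (0.04 ± 0.36), Ascl2 (1.66 ± 0.66, adjusted p = 0.126), Lrig1 (0.44 ± 0.23), Bmi1 (0.50 ± 0.29) and Hopx (0.95 ± 0.40) did not pass. Olfm4 had an estimate in the opposite direction that did not pass either (-2.75 ± 1.06, adjusted p = 0.112), and it turned on the SI BRAF on libraries, at -3.58 (adjusted p = 0.00879) without replicate 2 and at -0.5 (adjusted p = 0.864) without replicate 1. Ascl2 passed without COL BRAF off replicate 1 (2.53, adjusted p = 0.0241) and stood at 0.97 (adjusted p = 0.503) without COL BRAF on replicate 2. Prom1 was lost without SI BRAF off replicate 1 (0.68, adjusted p = 0.0665), and without SI BRAF on replicate 1 Lrig1 also passed (0.75, adjusted p = 0.0487), beside Sox9 at 1.54 and Prom1 at 1.06.

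For BRAFp53, 3 of the 10 markers differed between tissues, where 3.52% of genes did. Olfm4 had a lower response in COL by a log2 difference of -5.30 ± 1.19 (adjusted p = 0.0178), which limma-voom did not call (-6.19, adjusted p = 0.161) and which ran from -8.18 to -4.26 when 1 library was left out. Smoc2 had a difference of -1.98 ± 0.36 (adjusted p = 0.0048) in the same direction, whereas Prom1 had a higher response in COL by 0.96 ± 0.22 (adjusted p = 0.0193). Without COL BRAFp53 on replicate 1, and likewise without SI BRAFp53 off replicate 1, Smoc2 alone was called, and Prom1 was also lost without COL BRAFp53 off replicate 2 or SI BRAFp53 on replicate 2. Lgr5 stood at -1.08 ± 0.37 (adjusted p = 0.117). For p53, none of the 10 markers differed by edgeR, where 0.117% of genes did, 2 had an unadjusted p under 0.05, and DESeq2 and limma-voom called 0.

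Other transcripts of the crypt were counted beside the markers. The shares of all genes called in each culture are given below with the Wnt genes and apply to every list. Of 17 further crypt-base genes, 7 of the 15 tested fell and 1 rose in COL BRAF, 10 of 15 fell in COL BRAFp53, 10 of 16 fell and 2 rose in SI BRAF, and 4 of 16 fell and 2 rose in SI BRAFp53. Scn2b, a sodium channel subunit, fell in each, with log2 changes of -1.90 ± 0.34 and -2.94 ± 0.33 in COL BRAF and BRAFp53 and of -2.21 ± 0.34 and -1.58 ± 0.33 in SI. Phlda1 rose by 1.45 ± 0.18 in COL BRAF and by 1.42 ± 0.26 in SI BRAFp53. Without SI BRAF on replicate 1, 11 of 16 fell and 2 rose in SI BRAF. In the p53 cultures none of these genes was called.

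Of 20 Wnt receptors and targets, 5 fell and 3 rose in COL BRAF, 7 fell in COL BRAFp53, 7 of 18 fell and 2 rose in SI BRAF, and 2 of 18 fell and 1 rose in SI BRAFp53. Over all genes the shares lower and higher were 9.61% and 10.3% in COL BRAF, 7.76% and 9.95% in COL BRAFp53, 14.2% and 17.5% in SI BRAF and 4.53% and 6.98% in SI BRAFp53. Znrf3, a ligase that removes Frizzled receptors and is itself a Wnt target, had log2 changes of -0.86 ± 0.16 in COL BRAF and -1.23 ± 0.21 in SI BRAF. Axin2, a feedback inhibitor induced by Wnt, stood at -0.89 ± 0.15 in COL BRAFp53 and -1.45 ± 0.18 in SI BRAF. Cd44 rose by 0.79 ± 0.13 in COL BRAF. In SI BRAF, 9 of 20 tested fell and 2 rose when on replicate 1 was left out. The summed level of the 20 genes was 1153 to 1166 CPM off and 1129 to 1148 CPM on in COL BRAF, and in SI BRAF 756 to 762 CPM off and 639 to 669 CPM on.

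Markers of other cell states moved with the stem cell markers, and their part in the values above was not tested. In bulk RNA, fewer cells of a type and less RNA per cell cannot be told apart. Regenerative genes, a set that marks injured or fetal-like epithelium and includes Ly6a, Anxa1 and Clu, rose in 6 of 6 in COL BRAF, 4 of 6 in COL BRAFp53, 5 of 5 tested in SI BRAF and 4 of 5 in SI BRAFp53. Their summed level was 804 to 850 CPM off and 3363 to 4113 CPM on for COL BRAF, and 8.12 to 9.57 CPM off and 116 to 139 CPM on for SI BRAF. Off organoids of the other COL cultures already held 1576 to 1784 CPM (BRAFp53) and 3210 to 3905 CPM (p53). Ly6a had log2 increases of 2.60 ± 0.16 in COL BRAF, 2.12 ± 0.16 in COL BRAFp53, 5.0 ± 0.35 in SI BRAF and 3.87 ± 0.36 in SI BRAFp53. Of 10 proliferation genes, 9 fell in COL BRAF, 2 in COL BRAFp53, 5 in SI BRAF and none in SI BRAFp53. Leaving out SI BRAF on replicate 1, 9 proliferation genes fell in SI BRAF, their summed level being 1107 CPM in on replicate 1 and 698 CPM in on replicate 2.

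The lists of differentiated cell types were counted in the same way. Over all genes 9.61% were lower and 10.3% higher in COL BRAF, and 7.76% and 9.95% in COL BRAFp53. In SI BRAF the shares were 14.2% and 17.5%, and in SI BRAFp53 4.53% and 6.98%. Counts near these shares, such as 1 of 7 colonocyte genes in COL BRAFp53, are not read as a change of the list. All 10 enterocyte genes rose in SI BRAF, with summed levels of 10684 to 13709 CPM off and 45219 to 50518 CPM on, and in SI BRAFp53 5 rose and 2 fell. In COL BRAF 2 rose and 3 fell, and in COL BRAFp53 2 rose and 4 fell. Goblet genes rose in 4 of 6 in COL BRAF and in COL BRAFp53, in 3 of 6 in SI BRAF and in 6 of 6 in SI BRAFp53. Paneth genes fell in 4 of 6 in SI BRAF and rose in 4 of 6 in SI BRAFp53, while 1 rose in COL BRAF and 1 rose and 1 fell in COL BRAFp53. Tuft genes, a lineage in which Sox9 is also expressed, fell in 4 of 5 in SI BRAF and in 2 of 5 in COL BRAFp53. Colonocyte genes rose in 5 of 7 in COL BRAF, 1 of 7 in COL BRAFp53 and 3 of 6 tested in SI BRAF, and in SI BRAFp53 1 rose and 4 fell. Of 4 deep crypt secretory genes, 2 rose and 1 fell in each of COL BRAF, COL BRAFp53 and SI BRAF, and 2 rose in SI BRAFp53. Of 5 enteroendocrine genes 1 rose in COL BRAF and 1 in COL BRAFp53, and none was called in SI. Without SI BRAF on replicate 1, the SI BRAF counts of the regenerative, enterocyte, goblet, Paneth, tuft, deep crypt secretory and enteroendocrine lists were as given, and 3 colonocyte genes rose and 1 fell. In the p53 cultures 3 of 10 enterocyte genes fell in COL, and no other gene of these lists was called.

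**Figure D4:**
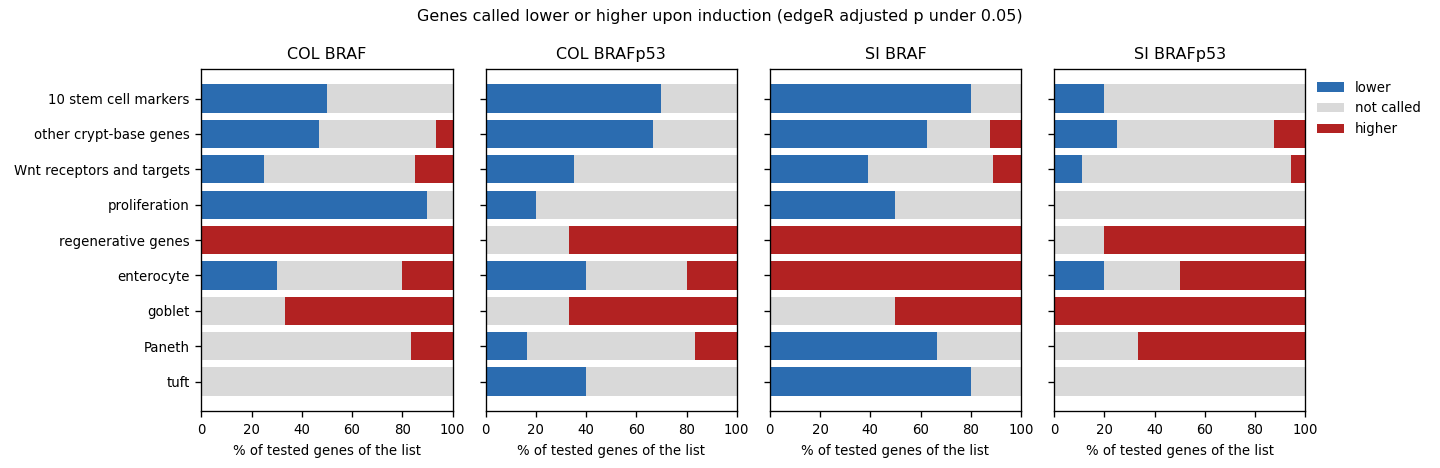
Share of the tested genes of each list called lower (blue), higher (red) or not called (grey) upon induction, in the 4 cultures with BRAFV600E. The stem cell marker bar is blue for 5, 7, 8 and 2 of 10 genes and holds no red in any culture, while the regenerative genes hold no blue.

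The markers also varied together across libraries. With log2 CPM centred within each culture, over 24 libraries, Lgr5 had a Pearson r of 0.94 with Lrig1, 0.92 with Olfm4, 0.90 with Smoc2, 0.86 with Sox9 and 0.80 with Ascl2, and of 0.50 with Bmi1 and 0.15 with Prom1. Prom1 had an r of -0.14 with Smoc2 and -0.10 with Olfm4. The points share cultures and the on and off states, so that these values describe the same responses as above. Without SI BRAF on replicate 1 (23 libraries), the r of Lgr5 was 0.95 with Olfm4, 0.94 with Lrig1, 0.90 with Smoc2 and 0.12 with Prom1. Among 10418 genes expressed in both tissues, those most like Lgr5 were Znrf3 (r of 0.964), Nfia (0.958) and Zfp763 (0.956). For Ascl2 they were Ppp1r1b (0.951), Racgap1 (0.918) and B3galnt2 (0.916), for Olfm4 Pde3b (0.954), Ccl28 (0.952) and 2310040G24Rik (0.951), and for Smoc2 Lgals12 (0.957), Tifa (0.954) and Aqp1 (0.944).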

How the data were processed

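RNA was sequenced from 24 organoid libraries, 2 for each of 12 groups. According to the labels and the study's methods section, paired-end reads were trimmed with Trimmomatic 0.36 and aligned with STAR 2.5.2b. The labels name both mm9 and mm10, and the annotation and strand setting of the counting are not given in the sources used here. The authors deposited raw read counts per Ensembl gene, 45706 rows a library, of which 45143 matched a symbol in GENCODE M21.

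The 10 markers and the gene lists beside them were chosen with earlier results of these data known. All tests were run over all genes with edgeR 4.0.16 in R 4.3.3 (quasi-likelihood test, TMM, filterByExpr, Benjamini-Hochberg adjusted p under 0.05), with 12 libraries of a tissue in 1 fit, all 24 for the tissue comparison of responses, and summed off libraries of each culture (3 against 3) for the off comparison. All p-values are two-sided. SE belongs to the log2 fold change. RPKM used exonic length. The steps were tested on simulated data. Alternatives were RLE scaling, no low-count filter, DESeq2 1.42.0, limma-voom 3.58.1, a replicate block, the 4 libraries of a culture alone, each library left out, and, for off organoids, a 24-library fit, a genotype term and each culture left out. Named genes were the 10 markers, up to 4 genes a list with the largest change among those called, and the 3 genes most like each of Lgr5, Ascl2, Olfm4 and Smoc2. Promoter sequence came from RefSeq.

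Same-numbered replicates of a culture did not deviate together (correlations of -0.06 to 0.085), so that they were not treated as pairs. Replicate libraries differed beyond counting noise in all 12 groups. The floor of 3 counts covers counting error only, while SE and p-values carry the spread between libraries, or between cultures in the off comparison.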

Additional observations from a re-analysis of the deposited data

Results flagged for a closer look

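The response, on against off, differed between genotypes or tissues for 9 values, each by the edgeR test of the difference itself (on the log2 scale), with dose and day also differing between tissues. In SI, the BRAFp53 response exceeded the BRAF response by 1.58 for Lgr5, 1.38 for Smoc2, 1.27 for Sox9 and 0.85 for Lrig1, and none of these 4 was called without SI BRAFp53 off replicate 1 (adjusted p of 0.0508 to 0.128). The COL response exceeded the SI response to BRAF by 1.23 for Sox9 and 0.92 for Prom1. For BRAFp53 the COL minus SI difference was -5.30 for Olfm4 (not called by limma-voom, adjusted p = 0.161, and -8.18 to -4.26 when 1 library was left out), -1.98 for Smoc2 and 0.96 for Prom1. The Prom1 difference was lost without SI BRAF off replicate 1 for BRAF (adjusted p = 0.0665) and without any 1 of 4 of the 8 libraries for BRAFp53. No cause was tested. Each of the SI cultures came from 1 donor culture, and genotype and culture cannot be told apart.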

How the results depend on the processing

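Calls of single markers kept their direction under all alternatives, and none reversed. Of 1369 alternative values, 629 kept their side of the threshold, 6 lost and 34 gained a call under other settings, while 636 kept, 50 lost and 14 gained it when a library or culture was left out. In addition, 55 values of markers that were not called changed sign. With 2 libraries a group, a library left alone is assumed to vary like the others. The causes were not tested.

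Without the low-count filter 1 marker was called for COL p53, where 569 of 30407 genes were called. For the COL BRAFp53 minus BRAF difference it was 1 (1312 of 30407 genes). Markers called were 4 for SI BRAFp53 (2519 of 26898 genes) and 6 for COL minus SI BRAF (2580 of 31779). They were 2 for COL minus SI p53 (488 of 31779) and 5 for COL minus SI BRAFp53 (1548 of 31779). SI BRAFp53 also had 4 by limma-voom (2221 of 16856 genes) and 4 in the 4 libraries alone (2156 of 15325). The off comparison had 10 in the 24-library fit, where 11266 of 19673 genes were called. That fit treats the 2 off libraries of a culture as independent, which they are not.

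Genes called without the filter were 569 for COL p53, 1312 for the COL difference of BRAFp53 and BRAF, 155 for SI p53, 488 for COL minus SI p53 and 1548 for COL minus SI BRAFp53, against 27, 172, 0, 23 and 693. DESeq2 called 324, 1364, 65, 162 and 1580 for these and 2108 for the SI difference (1383 by edgeR). By limma-voom SI p53 had 1, and the 4 libraries alone gave 14 for COL p53 and 17 for SI p53. The off comparison had 11266 in the 24-library fit and 3475 with a genotype term, against 5270.

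With the replicate number as a block, genes called were 15 for COL p53 and 17 for the COL difference of BRAFp53 and BRAF. Under the block Tnfrsf19 in COL BRAFp53 (-0.87, adjusted p = 0.0579) and Lgr5 in the SI difference (1.61, adjusted p = 0.0617) no longer passed, and Ascl2 in the SI difference did (1.57, adjusted p = 0.0306).

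With each library (or, for off organoids, culture) left out, markers called were 4 to 6 for COL BRAF, 0 to 0 for COL p53, 3 to 7 for COL BRAFp53, 0 to 0 for the COL difference of BRAFp53 and BRAF, 7 to 8 for SI BRAF, 0 to 0 for SI p53, 0 to 1 for SI BRAFp53, 0 to 6 for the SI difference, 1 to 3 for COL minus SI BRAF, 0 to 0 for COL minus SI p53, 1 to 4 for COL minus SI BRAFp53, 3 to 7 for the off comparison, and genes called were 1961 to 2489 for COL BRAF, 0 to 56 for COL p53, 1699 to 2399 for COL BRAFp53, 0 to 279 for the COL difference of BRAFp53 and BRAF, 3573 to 5343 for SI BRAF, 0 to 0 for SI p53, 887 to 1333 for SI BRAFp53, 597 to 2128 for the SI difference, 1202 to 1833 for COL minus SI BRAF, 3 to 46 for COL minus SI p53, 235 to 723 for COL minus SI BRAFp53, 2479 to 5381 for the off comparison.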
